A study of Mus musculus with 18 samples.

Results

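The genes described here encode the main apolipoproteins of the liver and the transfer protein that loads lipid onto them. They are Apoa1, Apoa2, Apoa4, Apoa5, Apob, Apoc1, Apoc2, Apoc3, Apoe and Mttp, taken by their exact symbols in both expression tables. All 10 were found among the 50268 gene symbols of the tables, and all 10 passed the filter on low counts at both times. RNA was sequenced from whole livers of male C57BL/6 mice at postnatal week 12, with 3 livers in each of 6 groups. Littermate control (LC) mice carried the floxed alleles of MR, the mineralocorticoid receptor gene Nr3c2 (MR flox/flox), and hepatocyte MR knockout (HMRKO) mice carried the same alleles with Alb-Cre, a Cre recombinase driven by the albumin promoter. The labels name these genotypes wild type and MR-/-. Both genotypes were studied 1 day after myocardial infarction (MI), made by tying off the left anterior descending artery of the heart for good, or after sham operation. Wild-type C57 mice were studied 12 hours after the same operations. At 1 day the labels name the operation for sham livers only, so that the MI groups follow from the stated design. Alb-Cre acts in hepatocytes and leaves the other cells of the liver with the receptor gene.

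Lipoproteins carry triglyceride and cholesterol through the blood, and the liver secretes very low density lipoprotein (VLDL) built on the protein of Apob. The product of Mttp moves lipid onto that protein while it is made. Apoa1 and Apoa2 encode the main proteins of high density lipoprotein (HDL). The products of Apoc1, Apoc2, Apoc3, Apoa4, Apoa5 and Apoe are exchangeable, moving between particles, and among them apoC-II activates lipoprotein lipase, apoA-V favors its action and apoC-III opposes it, while apoE is the ligand by which liver receptors take up remnants. Apoa1, Apoc3, Apoa4 and Apoa5 lie beside each other on chromosome 9, with Apoc3 on the opposite strand, and Apoe, Apoc1, Apoc4 and Apoc2 lie beside each other on chromosome 7.

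The promoters of genes whose RNA differed between HMRKO + MI and HMRKO + sham livers are shown, as the 250 bases upstream of the transcription start in RefSeq (GRCm38.p6), 5′ to 3′ on the strand of the gene. The RefSeq table held 8 of the 10 genes, and Apoc1 and Apoc3 were not among them. It held 2 entries for Apoa2, 2 for Apoa5 and 3 for Apoe, and the one nearest the gene start in GENCODE was used. The windows are Apoa4 (chr9:46240594-46240843, plus strand), Apoa5 (chr9:46268383-46268632, plus strand), Mttp (chr3:138143419-138143668, minus strand), Apoa2 (chr1:171224804-171225053, plus strand) and Apoe (chr7:19699189-19699438, minus strand). Capitals mark matches to the motifs searched on both strands.
Apoa4: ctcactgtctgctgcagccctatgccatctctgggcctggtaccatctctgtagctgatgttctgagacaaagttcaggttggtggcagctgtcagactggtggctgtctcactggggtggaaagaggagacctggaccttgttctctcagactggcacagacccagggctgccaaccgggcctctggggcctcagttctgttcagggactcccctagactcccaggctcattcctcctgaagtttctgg
Apoa5: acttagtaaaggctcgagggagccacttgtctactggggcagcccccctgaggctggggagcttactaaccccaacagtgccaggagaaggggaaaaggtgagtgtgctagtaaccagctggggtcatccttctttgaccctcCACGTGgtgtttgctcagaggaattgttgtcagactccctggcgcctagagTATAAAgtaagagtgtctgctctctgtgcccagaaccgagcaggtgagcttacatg
Mttp: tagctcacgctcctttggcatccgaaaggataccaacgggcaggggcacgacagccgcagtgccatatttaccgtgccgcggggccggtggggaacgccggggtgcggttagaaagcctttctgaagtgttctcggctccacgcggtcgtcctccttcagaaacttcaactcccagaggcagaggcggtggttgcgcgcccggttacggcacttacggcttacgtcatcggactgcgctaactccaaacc
Apoa2: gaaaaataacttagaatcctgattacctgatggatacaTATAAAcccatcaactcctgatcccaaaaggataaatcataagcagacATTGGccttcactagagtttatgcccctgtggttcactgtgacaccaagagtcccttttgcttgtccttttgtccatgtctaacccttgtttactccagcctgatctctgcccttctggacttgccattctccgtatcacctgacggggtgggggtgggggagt
Apoe: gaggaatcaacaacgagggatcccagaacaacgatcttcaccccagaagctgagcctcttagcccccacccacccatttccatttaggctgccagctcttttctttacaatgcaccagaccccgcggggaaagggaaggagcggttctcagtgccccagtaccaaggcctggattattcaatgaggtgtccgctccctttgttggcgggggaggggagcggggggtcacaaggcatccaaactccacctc

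The motifs were the TATA box TATAAA, the CCAAT box CCAAT, the nuclear receptor half-site AGGTCA, the direct repeat of that half-site with 1 base between (each match of which also holds the half-site), the HNF4 site CAAAGTCCA, the E-box CACGTG, the D-box TTATGTAA and the HNF1 half-site GTTAAT. Apoa5 held an E-box 107 to 102 bases upstream of its start and a TATA box 56 to 51 bases upstream. An E-box was present in 6.02% of all 32851 RefSeq promoter windows of this length and a TATA box in 12.4%. Apoa2 held a TATA box 212 to 207 bases upstream and a CCAAT box, on the other strand, 164 to 160 bases upstream. CCAAT was present in 33.9% of all windows. The windows of Apoa4, Mttp and Apoe held none of these letters. A match describes letters in the window and is not evidence of binding.

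Expression at 1 day is given as TMM-normalized CPM, that is, reads of a gene relative to all reads of its library after scaling between libraries, and values of a group are listed in the order of replicates 1, 2 and 3. Total counts were 19098704 to 28945526 per liver at 1 day. Nr3c2 read 5.6, 6.7 and 4.71 CPM in LC + sham, 3.56, 2.13 and 1.9 in LC + MI, 2.93, 3.76 and 2.55 in HMRKO + sham and 0.895, 1.1 and 0.913 in HMRKO + MI livers, so that every HMRKO liver was below every LC liver after the same operation. The difference was called after MI (log2 fold change −1.36, adjusted p = 0.00505 from edgeR) and not after sham operation (−0.88, adjusted p = 0.471). Alb, the albumin gene that marks hepatocytes, read 23251 to 45312 CPM in the 12 livers. Of 11 hepatocyte markers tested, edgeR called 0 higher and 3 lower in LC livers after MI, against 2.68% and 2.33% of all genes. In HMRKO livers after MI it called 2 higher and 1 lower, against 22.0% and 21.7%. Between HMRKO + MI and LC + MI livers 3 were called higher and 0 lower, against 14.6% and 16.2%. The part of hepatocytes in the results was not tested. The mitochondrial share of counts was 18.9% in LC + MI replicate 1 and 7.53% to 15.6% in the others. In the clock gene Dbp the sham livers of both genotypes read 180.0 to 308 CPM and the MI livers 6.19 to 14.5 CPM. The sources used here give no times of day, and the part of the clock in the results at 1 day was not tested. P values set a difference between groups against the spread between livers within groups, which was estimated from all 12 livers together. In whole tissue fewer cells of a type and less RNA per cell cannot be told apart.

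At 1 day after MI, in HMRKO livers, Apoa4, Apoa5 and Mttp rose and Apoc1, Apoa2, Apoc3 and Apoe fell compared to HMRKO + sham, so that edgeR called 7 of 10 (adjusted p under 0.05), against 43.7% of all 14266 genes tested (22.0% higher and 21.7% lower). In LC livers, Apoa4 alone was called (1 of 10, against 5% of all genes, 2.68% higher and 2.33% lower). Compared to LC + MI livers, HMRKO + MI livers had higher Apoa5 and lower Apoc1 and Apoc3 (3 of 10, against 30.8% of all genes, 14.6% higher and 16.2% lower). The median log2 fold change of the 10 was 0.09 in HMRKO livers after MI, beside 0.01 over all genes, and 0.11 in LC livers, beside 0.01. With an absolute log2 fold change over 1 as well, 3 members passed in HMRKO livers (Apoa4, Apoa5 and Apoc1, against 20.4% of all genes) and 1 in LC livers (Apoa4, against 2.49%). Between HMRKO + MI and LC + MI livers 0 passed (against 12.4%), and Apoc1 came nearest. There 5 of 10 had an unadjusted p under 0.05 from edgeR, against 6124 of all 14266 genes. The comparisons share groups of livers and are not independent of each other.

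**Figure D1:**
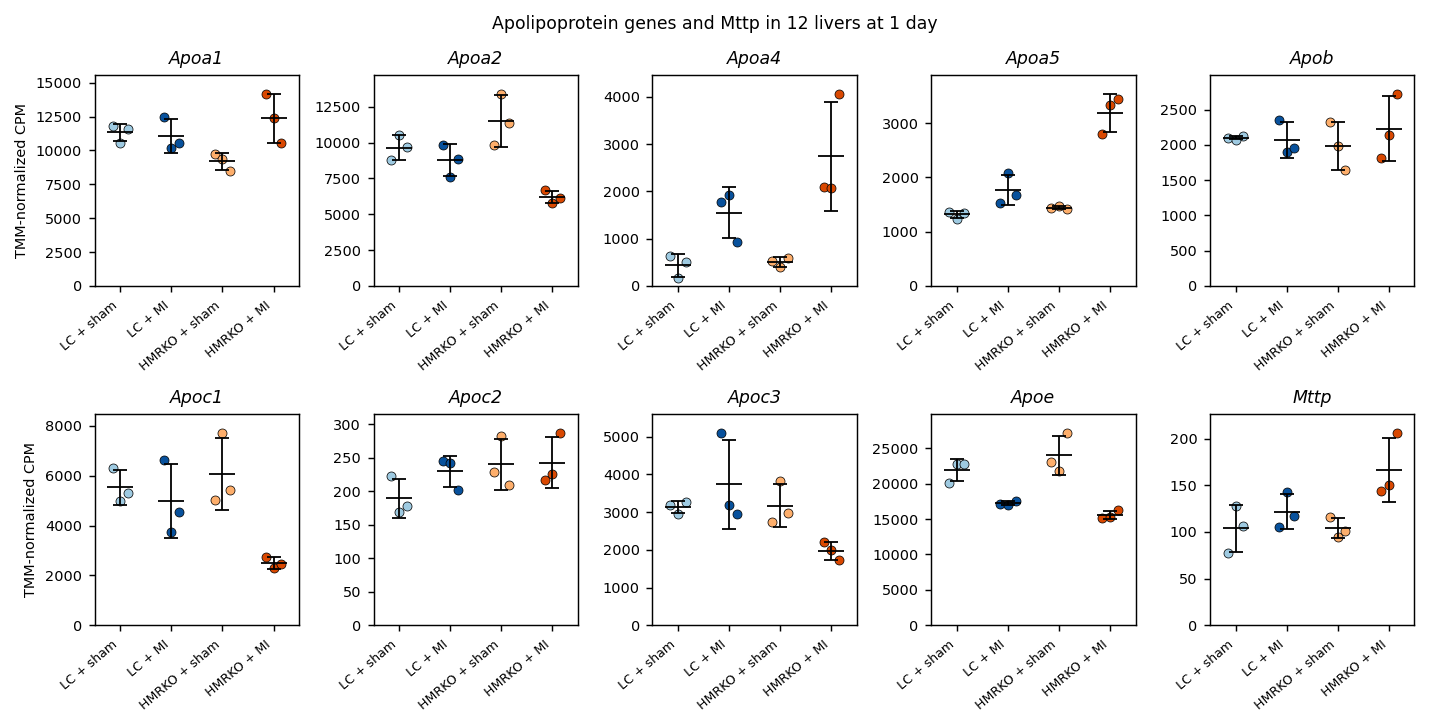
TMM-normalized CPM (linear axis from 0) of the 10 genes in the 12 livers at 1 day, with a point per liver and a bar at the mean ± SD of 3 livers. In HMRKO + MI livers Apoa4, Apoa5 and, narrowly, Mttp stand above, and Apoa2, Apoc1, Apoc3 and Apoe below, every other group.

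Apoa4 (ENSMUSG00000032080), whose protein rides on triglyceride-rich particles and HDL, rose in both genotypes. In LC livers it read 637, 171 and 514 CPM after sham operation and 1777, 1931 and 939.9 CPM after MI. The groups did not overlap, although LC + MI replicate 3 lay well below the other 2 and LC + sham replicate 2 was lowest of all. The log2 fold change was 1.81 (SE 0.44, adjusted p = 0.0337) from edgeR. That call was lost without LC + sham replicate 2 (adjusted p = 0.0757), LC + sham replicate 3 (0.0785), LC + MI replicate 1 (0.0502) or LC + MI replicate 2 (0.112), and in edgeR fitted to the 6 LC livers alone (0.0858). In HMRKO livers Apoa4 read 520.3, 402 and 597 CPM after sham operation and 2083, 2067 and 4066 CPM after MI, a log2 fold change of 2.44 (SE 0.45, adjusted p = 0.00108) from edgeR. HMRKO + MI replicate 3 was the highest of the 12 livers, and every HMRKO + MI liver was above every LC + MI liver. The difference between HMRKO + MI and LC + MI livers was 0.82 (SE 0.43, adjusted p = 0.159) from edgeR and was not called, with an interval of 2 SE either side from −0.03 to 1.68.

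Apoa5 (ENSMUSG00000032079), which encodes apoA-V, a protein of low abundance that favors triglyceride clearance, rose in HMRKO livers. It read 1436, 1478 and 1418 CPM in HMRKO + sham and 2795, 3339 and 3447 CPM in HMRKO + MI livers. The MI livers were all above the sham livers, and the log2 fold change was 1.14 (SE 0.16, adjusted p = 0.000233) from edgeR. LC livers read 1370.3, 1238 and 1343 CPM after sham operation and 1532, 2076 and 1685 CPM after MI. These groups did not overlap either, but the difference of 0.42 (SE 0.16, adjusted p = 0.15) was not called by edgeR, while DESeq2 gave an adjusted p of 0.0396. HMRKO + MI livers exceeded LC + MI livers by 0.86 (SE 0.16, adjusted p = 0.00307) on the log2 scale from edgeR, without overlap.

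Among the C apolipoproteins, Apoc1 (ENSMUSG00000040564), whose product inhibits lipoprotein lipase and receptor uptake, read 5047, 7715 and 5427 CPM in HMRKO + sham and 2752, 2306 and 2452 CPM in HMRKO + MI livers. The groups did not overlap and Apoc1 fell by 1.28 on the log2 scale (SE 0.24, adjusted p = 0.00116 from edgeR). In LC livers it read 6303, 4972 and 5316 CPM after sham operation and 6645, 3753 and 4545 CPM after MI. LC + MI replicate 1 was above all 3 sham livers and the other 2 were below them, and the log2 fold change of −0.15 (SE 0.23, adjusted p = 0.762) was not called by edgeR. HMRKO + MI livers were all below LC + MI livers, with a log2 fold change of −0.99 (SE 0.24, adjusted p = 0.00865) from edgeR.

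Apoc3 (ENSMUSG00000032081), the inhibitor of lipase action and of remnant uptake, read 3199, 2953 and 3259 CPM in LC + sham, 5094, 3175 and 2937 in LC + MI, 2727, 3825 and 2967 in HMRKO + sham and 2201, 1984 and 1724 in HMRKO + MI livers. The HMRKO + MI livers were below all 9 others, and LC + MI replicate 1 was the highest. Compared to HMRKO + sham, the log2 fold change was −0.69 (SE 0.22, adjusted p = 0.0236) from edgeR. This call was lost without HMRKO + sham replicate 2 (adjusted p = 0.0898), HMRKO + MI replicate 2 (0.0626) or HMRKO + MI replicate 3 (0.0826). Compared to LC + MI it was −0.92 (SE 0.22, adjusted p = 0.00932) from edgeR, and it remained called in the 12 fits that left out 1 liver each. In LC livers the log2 fold change was 0.25 (SE 0.22, adjusted p = 0.555), which was not called by edgeR, and its direction turned without LC + MI replicate 1 (−0.04).

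Apoc2 (ENSMUSG00000002992), which encodes the activator of lipoprotein lipase, was not called in any comparison at 1 day. Its 12 values ran from 169 to 287 CPM and the groups overlapped in the 4 comparisons between groups. Its log2 fold change from edgeR was 0.28 in LC and 0.01 in HMRKO livers after MI. The interval of its log2 fold change in HMRKO livers after MI was −0.33 to 0.36. Apoc4, which lies between Apoc1 and Apoc2 and is outside the 10, was chosen after its values were seen. It read 1071, 1528 and 1193 CPM in HMRKO + sham and 757, 727 and 787 CPM in HMRKO + MI livers (log2 fold change −0.74, SE 0.21, adjusted p = 0.0112 from edgeR). In the GENCODE annotation of GRCm38 the protein coding gene Gm44805 overlaps Apoc2 on the same strand, and it had 3200 counts over the 12 livers against 64098 for Apoc2.

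The HDL proteins differed from each other. Apoa2 (ENSMUSG00000005681) read 9807, 13406 and 11359 CPM in HMRKO + sham and 6666, 5801 and 6155 CPM in HMRKO + MI livers, without overlap, and fell by 0.89 on the log2 scale (SE 0.18, adjusted p = 0.00212 from edgeR). It read 8764, 10532 and 9669.9 CPM in LC + sham and 9843, 7624 and 8888 CPM in LC + MI livers, and this difference of −0.14 (SE 0.18, adjusted p = 0.719) was not called by edgeR. All 3 HMRKO + MI livers were below the 3 LC + MI livers, at −0.50 (SE 0.18, adjusted p = 0.0533) on the log2 scale from edgeR, which was not called, whereas DESeq2 gave 0.00684. Apoa1 (ENSMUSG00000032083), the structural protein of HDL, read 11776, 10584 and 11622 CPM in LC + sham, 12474, 10178 and 10529 in LC + MI, 9719, 9386 and 8469 in HMRKO + sham and 14156, 12429.9 and 10519 in HMRKO + MI livers. HMRKO + sham livers were below all others and the HMRKO + MI livers above them without overlap, yet the log2 fold change of 0.43 (SE 0.18, adjusted p = 0.0671) was not called by edgeR, while DESeq2 gave 0.00928. Apoa1 and Apoa2 thus had fitted changes of opposite sign in HMRKO livers after MI.

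Apoe (ENSMUSG00000002985), the receptor ligand on remnants, took the most counts of the 10 at 1 day. It read 20099, 22746 and 22775 CPM in LC + sham and 17168, 16966 and 17527 CPM in LC + MI livers. In HMRKO livers it read 23011, 21839 and 27145 CPM after sham operation and 15191, 15354 and 16250.2 CPM after MI. All MI livers were below all sham livers, across both genotypes. The log2 fold change was −0.62 (SE 0.17, adjusted p = 0.0104) in HMRKO livers and −0.35 (SE 0.17, adjusted p = 0.257) in LC livers from edgeR, and only the first was called, although DESeq2 gave 0.034 for the second. Macrophages of the liver also express Apoe and Apoc1. The summed level of 12 Kupffer cell and macrophage markers was 269 to 352 CPM in LC + sham, 167 to 191 in LC + MI, 165 to 248 in HMRKO + sham and 113 to 215 in HMRKO + MI livers. No marker of the list was at 0. In LC livers after MI edgeR called 4 of 12 lower and 0 higher, against 2.33% and 2.68% of all genes. In HMRKO livers it called 3 lower and 1 higher, against 21.7% and 22.0%. The summed neutrophil markers (8 genes) were 4.31 to 6.89 CPM in HMRKO + sham and 24.4 to 27.5 CPM in HMRKO + MI livers, with 5 of 5 tested called higher. They were 1.91 to 7.43 CPM in LC + sham and 6.61 to 14.5 CPM in LC + MI livers, with 0 of 5 called. Between HMRKO + MI and LC + MI livers 4 of 5 were called higher and 0 lower, against 14.6% and 16.2% of all genes. Of the 12 macrophage markers, 0 were called higher and 1 lower there. The part of these cells in the results was not tested.

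Of the assembly genes, Mttp was called and Apob was not. Mttp (ENSMUSG00000028158), the large subunit of the microsomal triglyceride transfer protein, read 116, 95.0 and 101 CPM in HMRKO + sham and 143, 151 and 206 CPM in HMRKO + MI livers. The groups did not overlap, with HMRKO + MI replicate 3 highest, and the log2 fold change was 0.68 (SE 0.20, adjusted p = 0.0165) from edgeR. The call was lost without HMRKO + sham replicate 2 (adjusted p = 0.0646), HMRKO + sham replicate 3 (0.0521) or HMRKO + MI replicate 3 (0.0791). In LC livers Mttp read 77.1, 127 and 106 CPM after sham operation and 105, 143 and 118 CPM after MI, which overlapped and were not called by edgeR (0.23, SE 0.20, adjusted p = 0.551). Between HMRKO + MI and LC + MI livers, which did not overlap, the log2 fold change was 0.45, SE 0.20, adjusted p = 0.106 from edgeR, which was not called. Apob (ENSMUSG00000020609), which encodes the structural protein of VLDL, read 2101, 2077 and 2123 CPM in LC + sham, 2355, 1894 and 1958 in LC + MI, 2322, 1989 and 1646 in HMRKO + sham and 1819, 2141 and 2726 in HMRKO + MI livers. The groups overlapped in the 4 comparisons of Apob at 1 day, and the log2 fold change of 0.17 (SE 0.19, adjusted p = 0.498) in HMRKO livers was not called by edgeR. Its interval was −0.21 to 0.55.

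**Figure D2:**
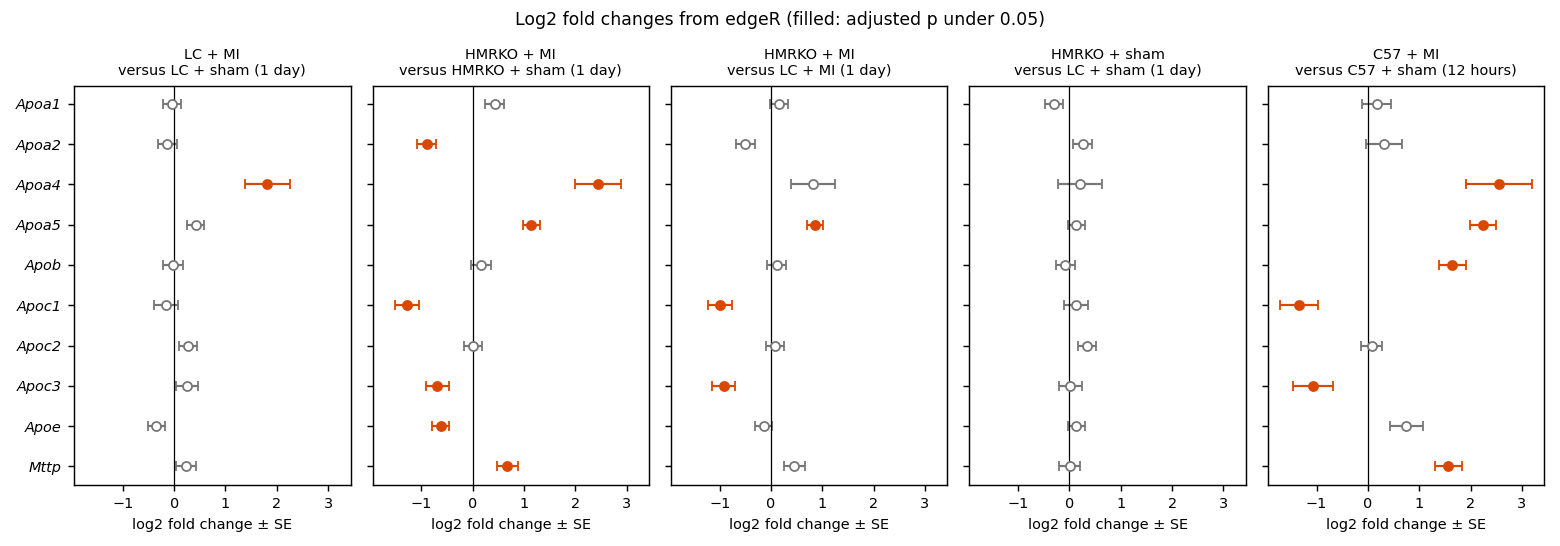
Log2 fold change ± SE from edgeR of each gene in 5 comparisons, with filled points for an adjusted p under 0.05. Filled points number 1 in LC livers, 7 in HMRKO livers after MI, 3 between HMRKO + MI and LC + MI, 0 between the sham groups and 6 at 12 hours.

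After sham operation none of the 10 genes was called between HMRKO and LC livers. edgeR called 0 of 10, against 0.035% of all genes (0.021% higher, 0.014% lower and 0.028% with an absolute log2 fold change over 1), and DESeq2 also called 0. At an unadjusted p under 0.05 from edgeR there were 0 of 10, against 838 of all 14266 genes. The fitted log2 differences ran from −0.30 for Apoa1 to 0.34 for Apoc2. The widest interval, that of Apoa4, was −0.65 to 1.05. All HMRKO + sham livers were below LC + sham livers in Apoa1 and above them in Apoa5, and 8 of the 10 genes overlapped. Neither difference was called (adjusted p = 0.911 and 0.973 from edgeR). The share of all genes without overlap is not given here, so that no trait of these genes is read from it.

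The difference between genotypes in the response to MI was tested as an interaction of genotype and operation, which sets the change in HMRKO livers against that in LC livers. Apoa5 differed by 0.72 (SE 0.23, adjusted p = 0.0497) and Apoc1 by −1.13 (SE 0.33, adjusted p = 0.0387) on the log2 scale from edgeR, which made 2 of 10 called against 15.2% of all genes (6.74% higher and 8.50% lower). Apoc1 alone also passed an absolute log2 difference over 1, against 10.1% of all genes. Neither call was firm. That of Apoa5 was lost in 11 of the 12 fits that left out 1 liver (adjusted p 0.0503 to 0.101, all but that without LC + MI replicate 2), and that of Apoc1 in 9 of 12 (0.0512 to 0.0885, all but those without LC + sham replicate 1, LC + MI replicate 2 and HMRKO + sham replicate 1). Both were also lost with the replicate number as a block (0.0694 for Apoa5 and 0.0515 for Apoc1). Their log2 differences ran from 0.63 to 0.86 and from −1.29 to −0.86 over the fits that left out 1 liver. Apoc3 (−0.94, SE 0.31, adjusted p = 0.0593) and Apoa2 (−0.76, SE 0.26, adjusted p = 0.0637) were not called by edgeR and were called by DESeq2 (0.0148 and 0.00584). For Apoa4 the difference was 0.62 (SE 0.60, adjusted p = 0.5), so that its change was not shown to differ between genotypes. Of 11 hepatocyte markers tested, edgeR called 3 higher and 0 lower in the interaction, against 6.74% and 8.50% of all genes.

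Other genes of the pathway were counted from lists at an adjusted p under 0.05 from edgeR, beside a median log2 fold change of 0.01 over all genes in each genotype after MI, and genes called with an absolute log2 fold change over 1 were named. The counts in HMRKO livers stand beside 43.7% of all genes called, 22.0% higher and 21.7% lower. For VLDL assembly, editing and export, 4 rose and 8 fell of 19 tested (median log2 fold change −0.17) in HMRKO livers after MI. Sec24d, a coat protein of vesicles leaving the endoplasmic reticulum, read 15.8 to 20.9 CPM after sham operation and 65.1 to 94.7 CPM after MI (log2 fold change 2.09, SE 0.34, adjusted p = 0.000554 from edgeR). P4hb, which encodes the partner subunit of the transfer protein, rose by 1.09 on the log2 scale, and Ces1d, a carboxylesterase that mobilizes lipid for VLDL, fell by 2.87. In LC livers P4hb was the 1 called gene of the list (log2 fold change 0.82, SE 0.17, adjusted p = 0.0201 from edgeR). Between HMRKO + MI and LC + MI livers Sec24d was higher by 1.33 and Ces1d lower by 1.17 log2 units.

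For HDL formation and remodelling, 1 rose and 5 fell of 11 tested (median log2 fold change −0.75) in HMRKO livers after MI. The gene that rose was Abca1, which loads lipid onto apoA-I, at 61.4 to 73.6 CPM after sham operation and 181 to 295 CPM after MI (log2 fold change 1.75, SE 0.17, adjusted p = 2.7e-05 from edgeR). In LC livers Abca1 read 83.2 to 92.2 CPM after sham operation and 64.4 to 73.5 CPM after MI. Its change differed between genotypes (interaction 2.07, SE 0.24, adjusted p = 0.0038 from edgeR). Pltp, a phospholipid transfer protein, fell by 1.31 in HMRKO livers (interaction −1.48, SE 0.47, adjusted p = 0.0485 from edgeR). Between the sham groups Pltp was higher by 1.21 in HMRKO livers, which was not called (adjusted p = 0.46 from edgeR). In HMRKO livers after MI the acute-phase HDL apolipoproteins Saa1 and Saa2 rose by 1.41 and 1.53, and Saa4 fell by 1.21. Saa1 and Saa2 are near-identical copies whose reads may be split between them.

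For the lipases and their regulators, 1 rose and 4 fell of 7 tested (median log2 fold change −0.94) in HMRKO livers after MI. Angptl8, a regulator of lipoprotein lipase that responds to feeding, fell by 1.99 on the log2 scale, and Angptl4, an inhibitor of the lipase, rose by 1.43. For receptors and uptake, 4 rose and 3 fell of 14 tested (median log2 fold change 0.20). Mylip, a ubiquitin ligase for the low density lipoprotein receptor, rose by 1.30. In LC livers Cd36, a fatty acid receptor, rose by 1.32, and none of the lipase list was called.

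For transcription regulators of these genes, 5 rose and 9 fell of 28 tested (median log2 fold change −0.15) in HMRKO livers after MI. Srebf1, which drives lipid synthesis, fell by 2.72 in HMRKO and by 1.52 in LC livers, and the clock repressor Nr1d1 fell by 1.89 and 2.35. Cebpa fell in HMRKO livers from 192 to 285 CPM to 54.4 to 106 CPM, and Mlxipl, a glucose-responsive regulator of lipid synthesis, fell by 1.70. Ppara, a regulator of fatty acid oxidation and of several apolipoprotein genes, read 22.6 to 31.8 CPM in HMRKO + MI and 11.4 to 14.1 CPM in LC + MI livers (log2 fold change 1.14, SE 0.25, adjusted p = 0.0058 from edgeR). For the other apolipoproteins, 2 rose and 4 fell of 11 tested (median log2 fold change −0.09) in HMRKO livers. Apol9a and Apol9b, near-identical copies of the apolipoprotein L family, fell by 4.44 and 5.19, and Apol7a fell by 2.97.

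In LC livers after MI, where 5% of all genes were called, the lists held these counts. For VLDL assembly 1 rose and 0 fell of 19 tested (median log2 fold change −0.0042), for HDL formation 1 rose and 0 fell of 11 tested (median log2 fold change −0.28), for receptors 1 rose and 1 fell of 14 tested (median log2 fold change −0.0012) and for transcription regulators 2 rose and 2 fell of 28 tested (median log2 fold change −0.20). Between HMRKO + MI and LC + MI livers, 2 of 19 genes of VLDL assembly were called higher and 2 lower, and 4 of the 7 lipase genes were called lower and none higher, beside 30.8% of all genes called. Angptl8 was lower there by 2.05, and Abca1 was higher by 1.75 on the log2 scale. In the interaction test edgeR called Ces1d (−1.82, SE 0.44, adjusted p = 0.0204) and Apom, an HDL apolipoprotein (1.64, SE 0.39, adjusted p = 0.0183). There 1 of 19 genes of VLDL assembly was called higher and 1 lower. Of 11 other apolipoproteins 1 was called higher and 4 lower, against 6.74% and 8.50% of all genes. Between the sham groups Apom was lower by 0.87 in HMRKO livers, which was not called (adjusted p = 0.579 from edgeR).

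At 12 hours the sham libraries of C57 mice were shallow, with 1361506 to 2255782 estimated counts, against 16745645 to 19190405 in the MI libraries, so that depth and operation cannot be told apart. The tested genes were 12548. TMM factors were 1.23 to 1.28 in sham and 0.756 to 0.851 in MI libraries, and the median log2 fold change of all genes was 0.11 by TMM and −0.39 in TPM. TPM values are scaled to transcript length and to a fixed total per library. Hepatocyte markers moved with the operation, 9 of 11 tested being called higher and none lower, at a summed 23840 to 27985 CPM in sham and 83326 to 112008 CPM in MI livers. Alb alone had a log2 fold change of 1.97. The exocrine pancreas list summed to 16.2 to 123 CPM in sham and 5.92 to 8.35 CPM in MI livers, with 3 of 4 tested called lower and Cpb1, Pnlip and Prss2 at 0 in the MI livers. The intestinal epithelium list summed to 17.0 to 55.4 CPM in sham and 46.5 to 82.0 CPM in MI livers. Of 4 of its genes tested, Fabp2 was called higher and Vil1, Cdh17 and Muc2 lower. Of all genes, 34.3% were called higher and 32.0% lower. Stellate cell markers were called lower in 6 of 8. Dbp read 239 to 362 CPM in sham and 2.76 to 14.7 CPM in MI livers. The part of each of these in the results was not tested. C57 + MI replicate 1 stood apart from the other MI livers in several of the 10 genes and its values are given with them.

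Within those limits, Apoa4, Apoa5, Apob and Mttp rose and Apoc1 and Apoc3 fell 12 hours after MI (6 of 10 called by edgeR, against 66.2% of all genes, 34.3% higher and 32.0% lower). All 6 also passed an absolute log2 fold change over 1, against 52.2% of all genes. Over all genes edgeR called 4299 higher and 4013 lower of 12548 tested. By limma on log2(TPM + 1), 2191 were called higher and 4974 lower of 11711 tested. Beside these counts over all genes, limma called Apoa5, Apob and Mttp of the 10 higher and Apoc1, Apoc2 and Apoc3 lower. Apoa5 (gene 66113) read 571, 564 and 738 CPM in C57 + sham and 3281, 2938 and 2630.1 CPM in C57 + MI livers. The groups were far apart and the log2 fold change was 2.24 (SE 0.26, adjusted p = 3.66e-05) from edgeR, or 1.65 in TPM (adjusted p = 0.000194 from limma). Apoa4 (gene 11808) read 343, 119 and 288 CPM in sham and 3123, 514 and 756 CPM in MI livers, with MI replicate 1 far above the others. Its log2 fold change was 2.55 (SE 0.64, adjusted p = 0.00497) from edgeR, 1.34 without C57 + MI replicate 1 (adjusted p = 0.0105 from edgeR), and 1.60 in TPM, where it was not called (adjusted p = 0.0599 from limma).

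Both assembly genes rose at 12 hours. Apob (gene 238055) read 525, 774 and 659 CPM in sham and 1654, 2261 and 2215 CPM in MI livers, with no overlap, for a log2 fold change of 1.65 (SE 0.26, adjusted p = 0.000312) from edgeR. Mttp (gene 17777) read 58.9, 89.4 and 113 CPM in sham and 245, 231 and 302 CPM in MI livers, again with no overlap, at 1.57 (SE 0.26, adjusted p = 0.000419) from edgeR. Both calls stayed in TPM, at 1.02 for Apob and 0.97 for Mttp. Their transcripts are long, 14.2 kb and 4.03 kb as implied by the deposited values, and genes over 4 kb had a median log2 fold change of −0.24. With the trend over length removed in each library, Apob was higher by 2.82 and Mttp by 1.64. Removing it was an alternative chosen after seeing the data. The median log2 fold change of the hepatocyte markers was 1.97.

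Apoc1 and Apoc3 fell at 12 hours. Apoc1 (gene 11812) read 10444, 9946 and 14719 CPM in sham and 7055, 3061 and 3796 CPM in MI livers, without overlap, with MI replicate 1 nearest to the sham livers. The log2 fold change was −1.34 (SE 0.37, adjusted p = 0.00835) from edgeR, and −1.78 without C57 + MI replicate 1. Apoc3 (gene 11814) read 6110.4, 4568 and 6639 CPM in sham and 4601, 1660.1 and 1967 CPM in MI livers, where MI replicate 1 lay just above the lowest sham liver. It had a log2 fold change of −1.07 (SE 0.40, adjusted p = 0.0327) from edgeR, which became −1.68 without C57 + MI replicate 1 and lost its call without C57 + sham replicate 1 (adjusted p = 0.0896), C57 + sham replicate 3 (0.118), C57 + MI replicate 2 (0.0695) or C57 + MI replicate 3 (0.0901). In TPM Apoc1 was lower by 2.03 and Apoc3 by 1.95 on the log2 scale. Apoc2 (gene 11813) read 207, 251 and 248 CPM in sham and 268, 232 and 244 CPM in MI livers and was not called by edgeR (0.07, SE 0.20, adjusted p = 0.758), but in TPM, where it read 628, 788 and 767 and 531, 445 and 496, it was called lower (−0.56, adjusted p = 0.032 from limma).

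The HDL proteins were not called at 12 hours. Apoa1 (gene 11806) read 12402, 10468 and 11989.9 CPM in sham and 12140.1, 12626 and 14551 CPM in MI livers, a log2 fold change of 0.17 (SE 0.28, adjusted p = 0.601) from edgeR that turned to −0.45 in TPM. Apoa2 (gene 11807) read 5164, 5729 and 9242 CPM in sham and 11384, 6020.4 and 7480.4 CPM in MI livers, which overlapped, at 0.31 (SE 0.35, adjusted p = 0.455) from edgeR and −0.35 in TPM. Apoe (gene 11816) read 8389, 9300.2 and 13883 CPM in sham and 19054, 15392 and 18596 CPM in MI livers. The MI livers were all above the sham livers, but the log2 fold change of 0.75 (SE 0.32, adjusted p = 0.0567) from edgeR was not called, and in TPM it was 0.15. Apoe thus had fitted changes of opposite sign at 12 hours in C57 livers and at 1 day in LC livers, which differ in mouse line and sequencing depth as well as time.

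Of the lists at 12 hours, where 66.2% of all genes were called (34.3% higher and 32.0% lower) with a median of 0.11, 10 rose and 2 fell of 20 tested (median log2 fold change 0.62) for VLDL assembly, editing and export. Sec24d rose by 3.34, P4hb by 2.42 and Sar1a, a GTPase of vesicle export, by 2.07 on the log2 scale. Abca1 rose by 3.87, and for HDL formation and remodelling 2 rose and 1 fell of 11 tested (median log2 fold change 0.17). For the lipases, 1 rose and 5 fell of 7 tested (median log2 fold change −1.33), with Lpl, lipoprotein lipase itself, lower by 2.24 and Angptl8 by 3.18. Saa1 and Saa2 rose by 3.67 and 3.85. For the other apolipoproteins, 6 rose and 6 fell of 13 tested (median log2 fold change 0.74).

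**Figure D3:**
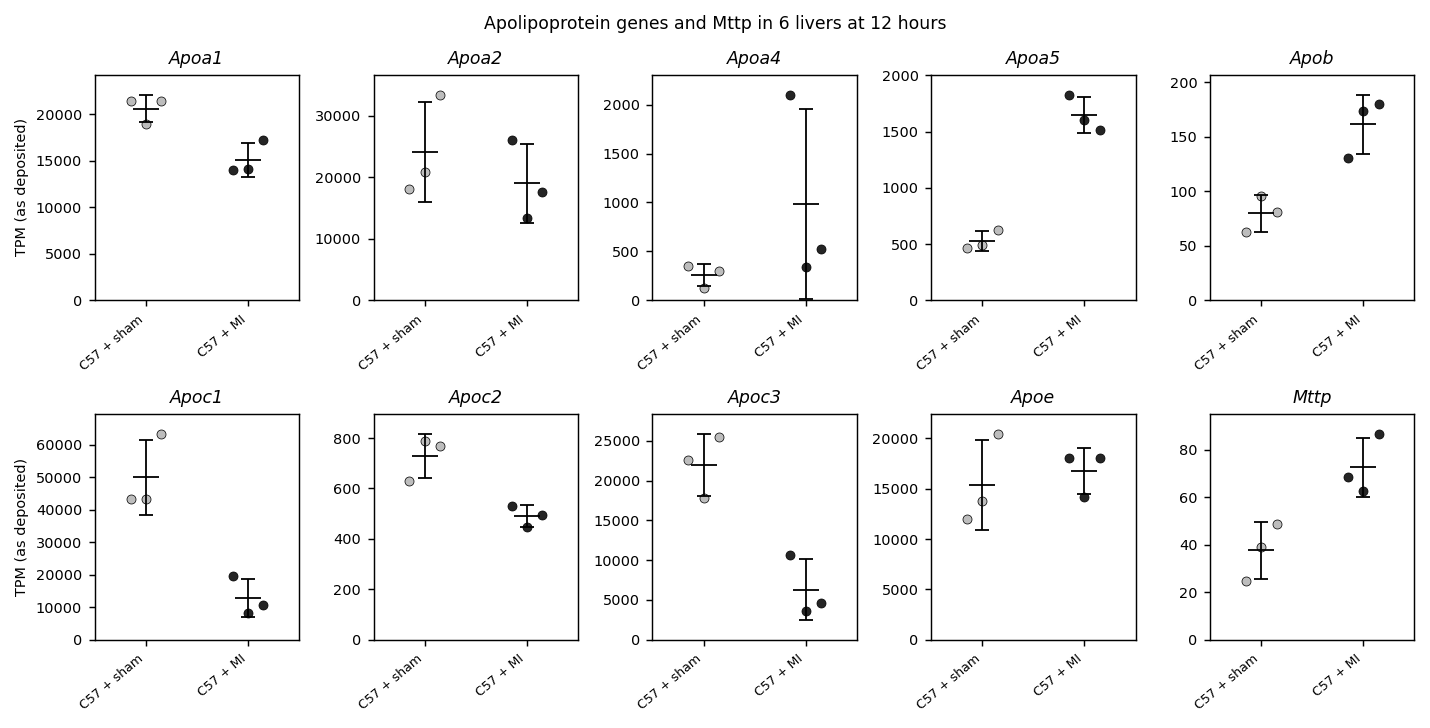
TPM as deposited (linear axis from 0) of the 10 genes in the 6 livers at 12 hours, with a point per liver and a bar at the mean ± SD of 3 livers. Apoa5, Apob and Mttp are higher and Apoa1, Apoc1, Apoc2 and Apoc3 lower in the MI livers without overlap, and 1 MI liver stands far above the rest in Apoa4. The median log2 fold change of all genes in TPM was −0.39, and the share of all genes without overlap is not given here. In CPM Apoa1 (0.17) and Apoc2 (0.07) overlapped and were not called by edgeR.

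Levels per transcript length can be compared between genes in TPM. In C57 + sham livers Apoc1 was highest at 43478, 43217 and 63259 TPM, apart from all others. It was followed by Apoc3, Apoa1, Apoa2 and Apoe, whose livers overlapped between neighbors in the order of medians (22547, 21429.6, 20865 and 13819 TPM). Then came Apoc2, Apoa5, Apoa4, Apob and Mttp, with medians of 767, 488, 300.2, 80.8 and 39.1 TPM, none of which overlapped with the next. In C57 + MI livers the order of the upper 5 by medians was Apoe, Apoa2, Apoa1, Apoc1 and Apoc3, again with overlap between neighbors. Apoa5 stood above Apoc2 there, at 1824, 1601 and 1514 against 531, 445 and 496 TPM. Apob and Mttp remained the lowest pair.

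The 10 genes together took 5.75% to 5.98% of all gene counts in LC + sham, 4.88% to 5.09% in LC + MI, 5.80% to 6.31% in HMRKO + sham and 4.33% to 4.50% in HMRKO + MI livers. The share was lower in every MI liver than in every sham liver at 1 day. Apoe alone went from 2.49% ± 0.375 to 1.46% ± 0.0468 of the counts in HMRKO livers (SD, n = 3), and Apoa4 went from 0.0526% ± 0.0122 to 0.256% ± 0.106. At 12 hours the share was 5.12% to 7.47% in sham and 3.39% to 5.34% in MI livers, with C57 + MI replicate 1 highest of the MI livers and within the range of the sham livers.

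**Figure D4:**
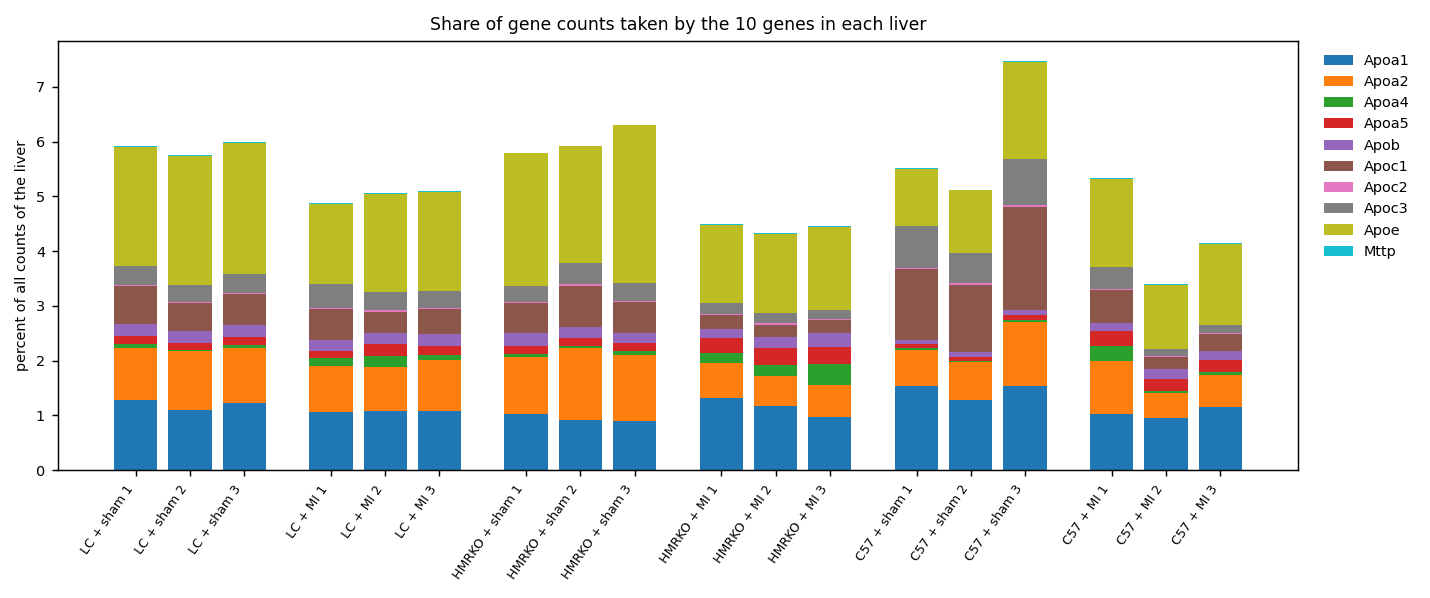
Percent of all gene counts of each liver taken by each of the 10 genes, as stacked bars from 0 for 18 livers in 6 groups. Apoe, Apoa1 and Apoa2 make up most of each bar at 1 day, and each MI bar is shorter than each sham bar at 1 day.

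The genes most like each called gene over the 12 livers at 1 day were taken by Pearson's r of log2 CPM among 9004 genes. The livers fall into 4 groups, so that r follows the groups and is given as a description. For Apoa4 the nearest was Gm10680 (r = 0.971), an antisense gene that overlaps Apoa4 on the opposite strand and had 9475 counts against 355146 over the 12 livers. No source used here gives the strand setting of the counting, and reads of both genes cannot be told apart. For Apoa5 the nearest were Golga2 (0.976), Mat1a (0.974) and Neat1 (0.973), and for Mttp Cct6a (0.961), Ubxn8 (0.957) and Acadvl (0.954). For Apoc1 they were Echdc2 (0.987), 0610037L13Rik (0.982) and Tle2 (0.982), for Apoc3 Metap1d (0.976), Bloc1s1 (0.972) and H2afj (0.967), and for Apoa2 Sepsecs, Uqcr11 and Nmrk1 (0.978 each). For Apoe they were Slc15a4 (0.972), Ces1d (0.969) and Papss2 (0.961).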

How the data were processed

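RNA-seq was measured in whole livers. The authors deposited a table of raw counts per gene for the 12 livers at 1 day, and a table at 12 hours with estimated counts, FPKM and TPM. Without giving roles, the submitters' processing notes list the build mm9 and the tools HISAT2 2.1.0, TopHat2, Bowtie2 2.2.3 and DESeq2. For the counting program, annotation and strand, no source used here gives an entry. The deposited FPKM served only to derive transcript lengths, and the authors' means over replicates were not used.

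Counts, with estimated counts rounded to whole numbers, were tested with the quasi-likelihood test of edgeR 4.0.16 (R 4.3.3, TMM scaling, filterByExpr with a minimum count of 10 and total of 15, Benjamini-Hochberg adjustment over all genes). The 12 livers at 1 day were fitted together and the 6 at 12 hours apart, leaving 14266 of 50600 and 12548 of 17127 genes. Genes were called at an adjusted p under 0.05. DESeq2 1.42.0, limma 3.58.1 on log2(TPM + 1), other scalings and filters and leaving out each liver were the alternatives. Tests were tried on simulated data. Intervals are 2 SE either side.

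The genes and lists were chosen with earlier results of these data known. All 10 members were named. From each pathway list, genes called with an absolute log2 fold change over 1 were named, at most 5 a comparison, with the deleted gene, defining markers, Dbp and the 3 genes most like each called member among those with a mean CPM of at least 5. Replicate numbers did not pair the livers. Some genes of the lists are not reported here by name.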

Additional observations from a re-analysis of the deposited data

Results flagged for a closer look

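The change of Apoc1 after MI differed between genotypes by −1.13 on the log2 scale (edgeR interaction test, adjusted p = 0.0387), with HMRKO livers falling more than LC livers. The change of Apoa5 differed by 0.72 (edgeR interaction test, adjusted p = 0.0497), with HMRKO livers rising more. Neither call was firm: that of Apoa5 was lost in 11 and that of Apoc1 in 9 of the 12 fits that left out 1 liver, and both were lost with the replicate number as a block (adjusted p = 0.0694 and 0.0515 from edgeR). Apoe was lower in all 3 LC + MI livers than in the LC + sham livers at 1 day (log2 fold change −0.35) and higher in all 3 C57 + MI livers than in the C57 + sham livers at 12 hours (0.75). Neither change was called (adjusted p = 0.257 and 0.0567 from edgeR). In TPM the log2 fold change at 12 hours was 0.15 and the livers overlapped. The difference in Apoe between the experiments was not tested, since they were processed apart.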

How the results depend on the processing

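Over settings other than leaving out a liver, 517 log2 fold changes of the 10 genes kept their direction and side of the threshold, 10 gained a call, 8 lost one and 15 changed sign. With 1 liver left out, these numbers were 599, 7, 34 and 20. In LC livers the count of called members after MI was 1, against 3 by DESeq2, 0 when the 6 LC livers were fitted alone and 0 to 1 with 1 liver left out. For the interaction it was 2, against 1 by RLE size factors, 4 by DESeq2, 1 with no filter, 0 with the replicate number as a block and 0 to 2 with 1 liver left out. Over all genes, those called in LC livers were 714, against 1307 by DESeq2, 1151 with no filter and 312 with the LC livers alone. Leaving out LC + sham replicate 2 gave 245, LC + sham replicate 3 gave 277, LC + MI replicate 1 gave 1117, LC + MI replicate 2 gave 176 and LC + MI replicate 3 gave 181. Between sham groups they were 5, against 54 by DESeq2, 84 with no filter, 3 with the replicate block, 1 with the sham groups alone and 0 to 14 with 1 liver left out. Those between MI groups were 4400, against 2564 without LC + MI replicate 1. In the interaction they were 2175, against 2149 by RLE size factors, 2884 by DESeq2 and 1806 with the replicate block. With no filter the interaction gave 2420 of 24362 genes tested, and with 1 liver left out 983 to 2268 genes. The same-numbered livers did not deviate together (correlations of −0.17 to 0.18 at 1 day), and the replicate block moved the members called at 12 hours from 6 to 7.

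Values that changed sign were all near 0 or uncalled but for Apoc2 in TPM. They were Apoc2 in HMRKO livers after MI with no filter (−0.0090) and Mttp between sham groups by upper quartile scaling (−0.0054). At 12 hours Apoc2 changed sign by RLE (−0.0047), DESeq2 (−0.0058), a stricter filter (−0.0205), TPM + 1 (−0.56) and TPM + 0.1 (−0.57). It also did with all libraries thinned to the depth of the shallowest sham library (−0.0767) and with length trend removed (−0.24). Apoa1 changed sign in TPM (−0.45 with both pseudocounts) and with length trend removed (−0.16), and Apoa2 likewise (−0.35 and −0.0131). With 1 liver left out, the log2 fold change in LC livers ran from −0.13 to 0.0223 for Apoa1, −0.13 to 0.0383 for Apob, −0.41 to 0.0171 for Apoc1 and −0.0383 to 0.40 for Apoc3. Between MI groups it ran from −0.0622 to 0.24 for Apob and −0.0551 to 0.16 for Apoc2, and in HMRKO livers from −0.0034 to 0.30 for Apob and −0.12 to 0.14 for Apoc2. Between sham groups it ran from −0.18 to 0.57 for Apoa4, −0.21 to 0.0381 for Apob, −0.0708 to 0.25 for Apoc1, −0.13 to 0.11 for Apoc3 and −0.17 to 0.18 for Mttp. Without C57 + MI replicate 1 Apoa2 at 12 hours was −0.0011 (to 0.66 over the 6 livers). The causes were not tested. Thinning and length removal were chosen after seeing the data. The lowest count of a member was 100, for Mttp in a C57 + sham liver, so that counting error is widest there.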
